A study of Mus musculus with 12 samples.

Results

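The extracellular matrix and fibrosis genes described here are 36 genes chosen by name: those of fibrillar, microfibrillar and basement membrane proteins, of matricellular proteins and small proteoglycans, and of the enzymes and inhibitors that cut or crosslink matrix. Of these, 34 had at least 1 probe set of a single gene symbol and were measured, among 18193 genes measured in the same way. Fbn1 and Loxl2 were not analysed here. The 36 genes were chosen with earlier results of these data known. The shares of them called below are therefore descriptions and no test of the group. The 34 genes were read by 77 probe sets, and 1 value per gene was taken as the mean log2 ratio of its probe sets. By role, the 36 genes fell into 4 fibrillar collagens, 5 other fibre and microfibril genes, 7 basement membrane genes, 8 matricellular genes, 4 genes of small proteoglycans and matrix Gla protein, and 8 genes of proteases, inhibitors and crosslinking enzymes.

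Whole kidneys were compared in 4 groups of 3 male mice aged 2.5 months, with 1 Affymetrix Mouse Genome 430 2.0 array for each mouse. The WT baseline and KO baseline groups received no angiotensin II (ANG II), and the WT ANG II and KO ANG II groups received it by infusion at 1 ug/kg/min for 2 days. WT were wild-type mice and KO were mice deficient in AGTR1A, the AT1A receptor through which ANG II acts on vessels and kidney tubules. Every mouse was an F1 (C57BL6 X 129/SvEv) animal on the NS diet. The labels give no further detail of the allele, and other ANG II receptors are not mentioned in them. The comparisons asked how matrix genes differed between genotypes and how they responded to ANG II with and without this receptor.

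The extracellular matrix of the kidney has a basement membrane, a thin sheet of type IV collagen, laminin and nidogen under epithelia and around capillaries, and an interstitial part in which fibrillar collagens are the main fibres. Fibroblasts and pericytes make most of the interstitial matrix, and in scarring the fibrillar collagens, fibronectin and the matricellular proteins, which act on cells and growth factors rather than bear load, accumulate together. Metalloproteinases cut matrix proteins, TIMPs inhibit them, and lysyl oxidases crosslink collagen and elastin.

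The stretch of 250 bases before the transcription start is shown for 6 of these genes, 2 collagens and 4 genes that were higher in KO than in WT kidneys at baseline, as examples of the sequences in front of members that moved in these data. The sequences are those of RefSeq on GRCm38.p6, read 5′ to 3′ on the strand of the gene. Capitals mark 4 short motifs on either strand, namely TATAAA (the TATA box), CCAAT (the motif of NF-Y), GGGCGG (that of SP1) and GGAATG (that of TEAD factors), so a motif on the other strand shows as its reverse complement. Different motifs may share a base, as ATTGG and GGGCGG do once in Mmp14. The Col3a1 stretch is chr1:45311288-45311537 on the plus strand, Col1a2 chr6:4505368-4505617 on the plus strand, Tgfbi chr13:56609336-56609585 on the plus strand, Thbs2 chr17:14694263-14694512 on the minus strand, Timp1 chrX:20869916-20870165 on the plus strand and Mmp14 chr14:54431348-54431597 on the plus strand.
Col3a1: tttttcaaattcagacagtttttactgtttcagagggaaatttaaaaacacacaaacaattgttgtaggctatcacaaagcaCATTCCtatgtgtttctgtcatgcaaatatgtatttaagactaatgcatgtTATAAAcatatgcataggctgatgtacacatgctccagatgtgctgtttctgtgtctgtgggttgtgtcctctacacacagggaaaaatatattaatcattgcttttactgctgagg
Col1a2: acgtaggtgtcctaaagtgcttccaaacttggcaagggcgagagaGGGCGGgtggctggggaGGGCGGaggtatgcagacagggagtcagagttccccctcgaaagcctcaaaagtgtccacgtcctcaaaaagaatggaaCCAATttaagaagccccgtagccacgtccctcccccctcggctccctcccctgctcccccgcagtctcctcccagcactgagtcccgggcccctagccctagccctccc
Tgfbi: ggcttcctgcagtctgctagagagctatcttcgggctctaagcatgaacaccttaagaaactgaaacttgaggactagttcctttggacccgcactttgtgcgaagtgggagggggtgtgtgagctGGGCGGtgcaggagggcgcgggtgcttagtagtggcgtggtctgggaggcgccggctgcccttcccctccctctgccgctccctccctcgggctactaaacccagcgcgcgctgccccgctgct
Thbs2: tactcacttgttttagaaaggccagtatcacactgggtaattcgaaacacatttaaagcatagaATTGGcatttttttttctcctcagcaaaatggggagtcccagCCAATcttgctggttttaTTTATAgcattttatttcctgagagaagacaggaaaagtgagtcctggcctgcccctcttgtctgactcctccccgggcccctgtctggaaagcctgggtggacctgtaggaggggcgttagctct
Timp1: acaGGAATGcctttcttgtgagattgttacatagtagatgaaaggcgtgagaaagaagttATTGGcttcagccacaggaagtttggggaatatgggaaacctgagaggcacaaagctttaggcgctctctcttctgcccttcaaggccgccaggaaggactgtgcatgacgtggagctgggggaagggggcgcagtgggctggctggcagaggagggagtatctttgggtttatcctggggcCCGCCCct
Mmp14: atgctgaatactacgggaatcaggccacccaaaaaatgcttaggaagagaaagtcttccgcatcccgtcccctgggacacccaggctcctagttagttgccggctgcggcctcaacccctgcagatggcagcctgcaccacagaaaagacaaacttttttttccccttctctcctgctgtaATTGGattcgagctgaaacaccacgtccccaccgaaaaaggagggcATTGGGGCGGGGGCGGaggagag
A promoter sequence was matched for 21 of the 36 genes. TATAAA was found in front of 4 of these 21 (Col3a1, Postn, Thbs2 and Tnc), against 12.4% of all 32851 promoters in the same window. CCAAT was found for 11 of the 21 (33.8% of all promoters), GGGCGG for 14 (32.7%), GGAATG for 4 (12.6%) and GTCTG, a part of SMAD binding sites, for 12 (42.2%). TGANTCA, the AP-1 motif, searched in the same way, was found for 0 of the 21 and in 6.7% of all promoters. The percentages count promoter entries, of which the 21 genes had 25. By entry, TATAAA was found in 5 of the 25, CCAAT in 11, GGGCGG in 15, GGAATG in 4 and GTCTG in 12. These are matches of letters only and were not tested against the expression values.

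Each deposited value was relative to the median of that probe set in the 12 kidneys, so a ratio of 1 is the middle of the 12 kidneys. Levels of different genes cannot be compared on this scale, and whether kidney marker genes were present cannot be read from it. The 12 arrays had median ratios of 0.986 to 1.014. The 3′ and 5′ control probe sets of Actb were compared as a sign of RNA integrity. Each is relative to its own median, so their difference compares arrays, and a value near 0 does not mean intact RNA. This difference was 0.075 to 0.150 (log2) in infused WT kidneys and 0.002 to 0.034 in infused KO kidneys. It was -0.025 to 0.007 in WT kidneys at baseline and -0.052 to -0.027 in KO kidneys at baseline. In each comparison of 2 groups made below these ranges lay apart, most widely where infused WT kidneys were compared. The same difference for Gapdh was -0.060 to 0.058 in infused WT and -0.026 to 0.020 in infused KO kidneys. At baseline it was -0.025 to 0.001 in WT and -0.053 to 0.032 in KO kidneys, and these Gapdh ranges overlapped. The part of the Actb difference in the results was not tested. The Agtr1a probe sets averaged ratios of 1.37, 1.40 and 1.36 in WT baseline, 0.957, 1.00 and 0.997 in WT ANG II, 1.04, 0.923 and 0.965 in KO baseline and 0.983, 0.917 and 1.05 in KO ANG II. Agtr1a was lower in KO at baseline (log2 change -0.49 ± 0.07, adjusted p = 0.00148), while the infused genotypes overlapped. Where these probe sets lie relative to the deleted part is unknown here, which limits them as a check of the genotype labels.

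KO kidneys at baseline had higher values than WT kidneys for 18 of the 34 genes (52.9%, against 5.13% of all genes), most of them matricellular genes, proteoglycans, metalloproteinases and TIMPs, and 1 of the 7 basement membrane genes was among them. With ANG II, 15 genes (44.1%, against 7.00% of all genes) fell in KO kidneys, led by Smoc2, Ccn2 and Mgp. In WT kidneys none of the 34 genes rose with ANG II and 5 (14.7%) fell, close to the 15.6% of all genes that fell. Under ANG II, 9 genes (26.5%, against 15.2% of all genes) were higher in KO than in WT, led by Col3a1, Col6a3, Tgfbi and Fbln5. A gene was called at an adjusted p under 0.05, from limma's moderated test with Benjamini-Hochberg adjustment over all 18193 genes in a comparison, and errors after ± are moderated standard errors of log2 changes with 3 mice in each group. In whole kidneys, fewer cells of a type and less RNA per cell cannot be told apart.

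Of the 34 genes, 18 were higher in KO than in WT at baseline and 0 were lower. This is 52.9% of the members, against 5.13% of all genes called higher and 2.94% called lower. At an unadjusted p under 0.05 in the same limma fit, 1 gene was lower, Timp3. The median log2 difference of the 34 genes was 0.65, and that of all genes was -0.04. The KO and WT baseline arrays did not overlap for 22 genes on the higher side, which held for 13.6% of all genes, and for 1 gene on the lower side, Timp3, against 21.1% of all genes. The median differences by role were 0.75 for the fibrillar collagens (1 of 4 called), 0.34 for the other fibre genes (1 of 4), 0.11 for the basement membrane (1 of 7), 0.94 for the matricellular genes (5 of 8), 1.23 for the proteoglycans and Mgp (4 of 4) and 0.69 for the proteases, inhibitors and crosslinking enzymes (6 of 7). The count was 9 without WT baseline replicate 3, 10 without KO baseline replicate 1 and 11 without KO baseline replicate 2. The share of all genes called in either direction was 3.13%, 4.12% and 3.32% in these fits, against 8.07% in the main fit.

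**Figure D1:**
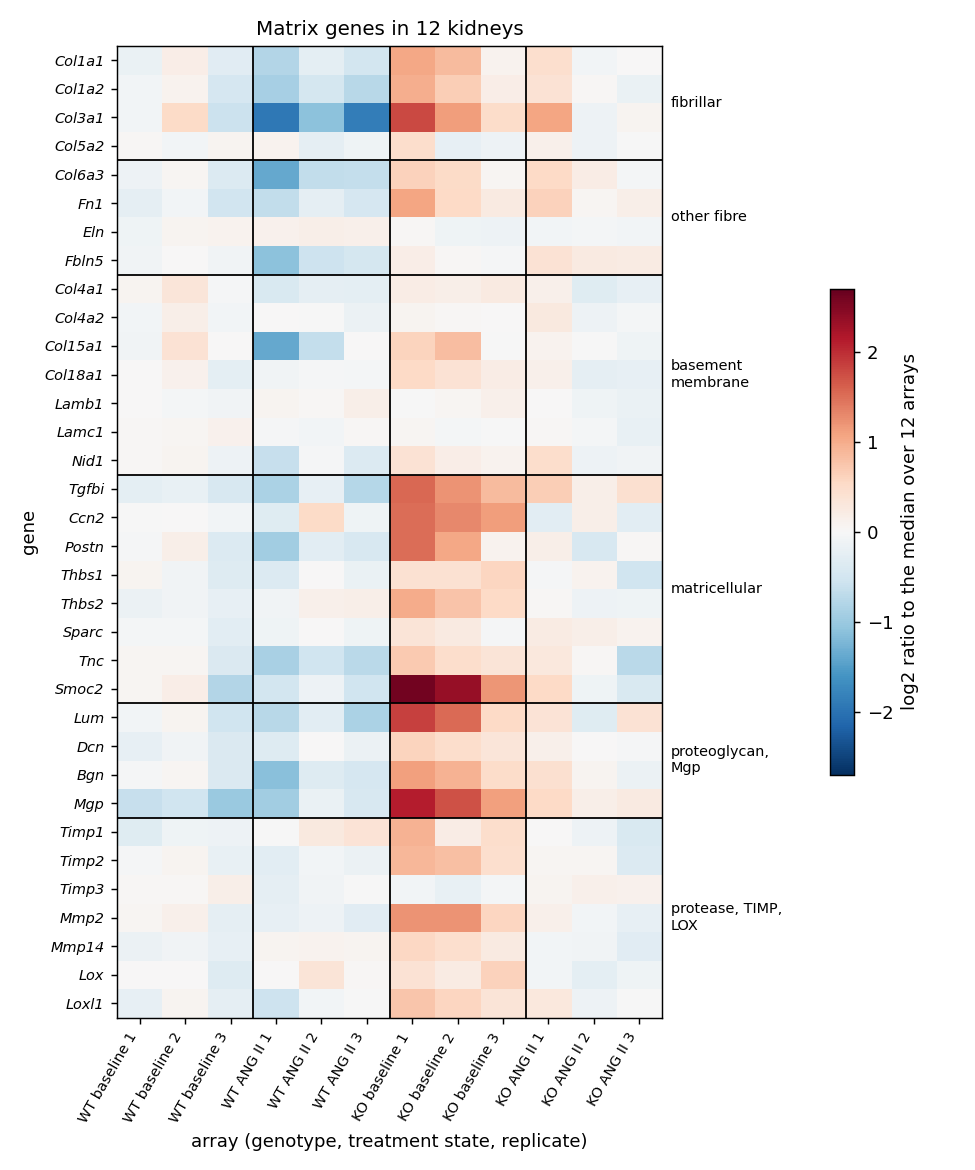
Log2 ratio of each of the 34 measured matrix genes (rows, ordered by role) on each of the 12 arrays (columns, ordered by group), where 0 is the median of the 12 kidneys, red is above and blue below it. Red is concentrated in the KO baseline columns for the matricellular, proteoglycan and protease rows, and the basement membrane rows are paler; KO baseline replicate 1 is the highest array of its group for 28 genes.

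In KO kidneys, 15 of the 34 genes fell with ANG II and 0 rose. This is 44.1% of the members, against 7.00% of all genes that fell and 5.82% that rose. At an unadjusted p under 0.05 in limma, 1 gene was higher, Timp3. The median change was -0.52 for the 34 genes and 0.05 for all genes. By role, the median changes were -0.52 for the fibrillar collagens (0 of 4 called), -0.08 for the other fibre genes (0 of 4), -0.16 for the basement membrane (1 of 7), -0.82 for the matricellular genes (5 of 8), -0.95 for the proteoglycans and Mgp (4 of 4) and -0.58 for the proteases, inhibitors and crosslinking enzymes (5 of 7). The KO response and the baseline comparison of genotypes share the 3 KO baseline arrays, so a high value in these arrays enters both, and their values are set side by side below without being counted as support for each other. The count was 8 without KO baseline replicate 1, and 9 without KO baseline replicate 2, KO ANG II replicate 2 or KO ANG II replicate 3. In the same order, 6.87%, 5.38%, 7.43% and 5.14% of all genes were called in either direction, against 12.8% in the main fit.

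In WT kidneys, 5 of the 34 genes fell with ANG II, namely Col3a1, Col6a3, Fbln5, Col4a1 and Tnc, and 0 rose. This is 14.7% of the members, close to the 15.6% of all genes that fell, and 10.9% of all genes rose. At an unadjusted p under 0.05 in limma, 2 genes were higher, Timp1 and Mmp14. The median change was -0.15 for the 34 genes and 0.03 for all genes. With the log2 ratios quantile normalized, 3 genes were called, 1 higher (Mgp, 0.50) and 2 lower (Col3a1, -1.08, and Fbln5, -0.40). The count was 3 without WT baseline replicate 1, 2 without WT baseline replicate 2 and 3 without WT ANG II replicate 1. The share of all genes called in either direction was 14.2%, 20.2% and 30.1% in these fits, against 26.5% in the main fit.

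Between the infused groups, 9 of the 34 genes were higher in KO and 0 were lower, which is 26.5% of the members against 15.2% of all genes higher and 10.4% lower. At an unadjusted p under 0.05, limma gave 5 lower genes, namely Eln, Lamb1, Timp1, Mmp14 and Lox. The median difference was 0.24 for the 34 genes and -0.02 for all genes. The called genes were 2 fibrillar collagens (Col1a2, Col3a1), 3 other fibre genes (Col6a3, Fn1, Fbln5), Tgfbi, Bgn, Mgp and Timp3. In the main fit 25.6% of all genes were called in either direction. The count was 5 without WT ANG II replicate 1, where 29.8% of all genes were called. It was 4 without KO ANG II replicate 1, where 15.0% of all genes were called. The Actb difference of the infused WT kidneys enters this comparison and the difference of responses as well.

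The response to ANG II differed between KO and WT for 12 of the 34 genes, by the interaction term of the same fit, and for 13.0% of all genes. It was lower in KO for 10, 29.4% of the members against 4.12% of all genes, and higher in KO for 2, 5.9% of the members against 8.86% of all genes. The 10 were 3 matricellular genes (Ccn2, Thbs2, Smoc2), Dcn and Mgp, and 5 of the protease group (Timp1, Timp2, Mmp2, Mmp14, Lox), and the 2 were Fbln5 and Timp3. None of the 4 fibrillar collagens and 7 basement membrane genes was called as a gene. Of the 4 probe sets of Lamb1, 2 were called, with a lower response in KO. The count was 7 without WT baseline replicate 3 and 7 without KO baseline replicate 2, where 9.12% and 9.63% of all genes were called.

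**Figure D2:**
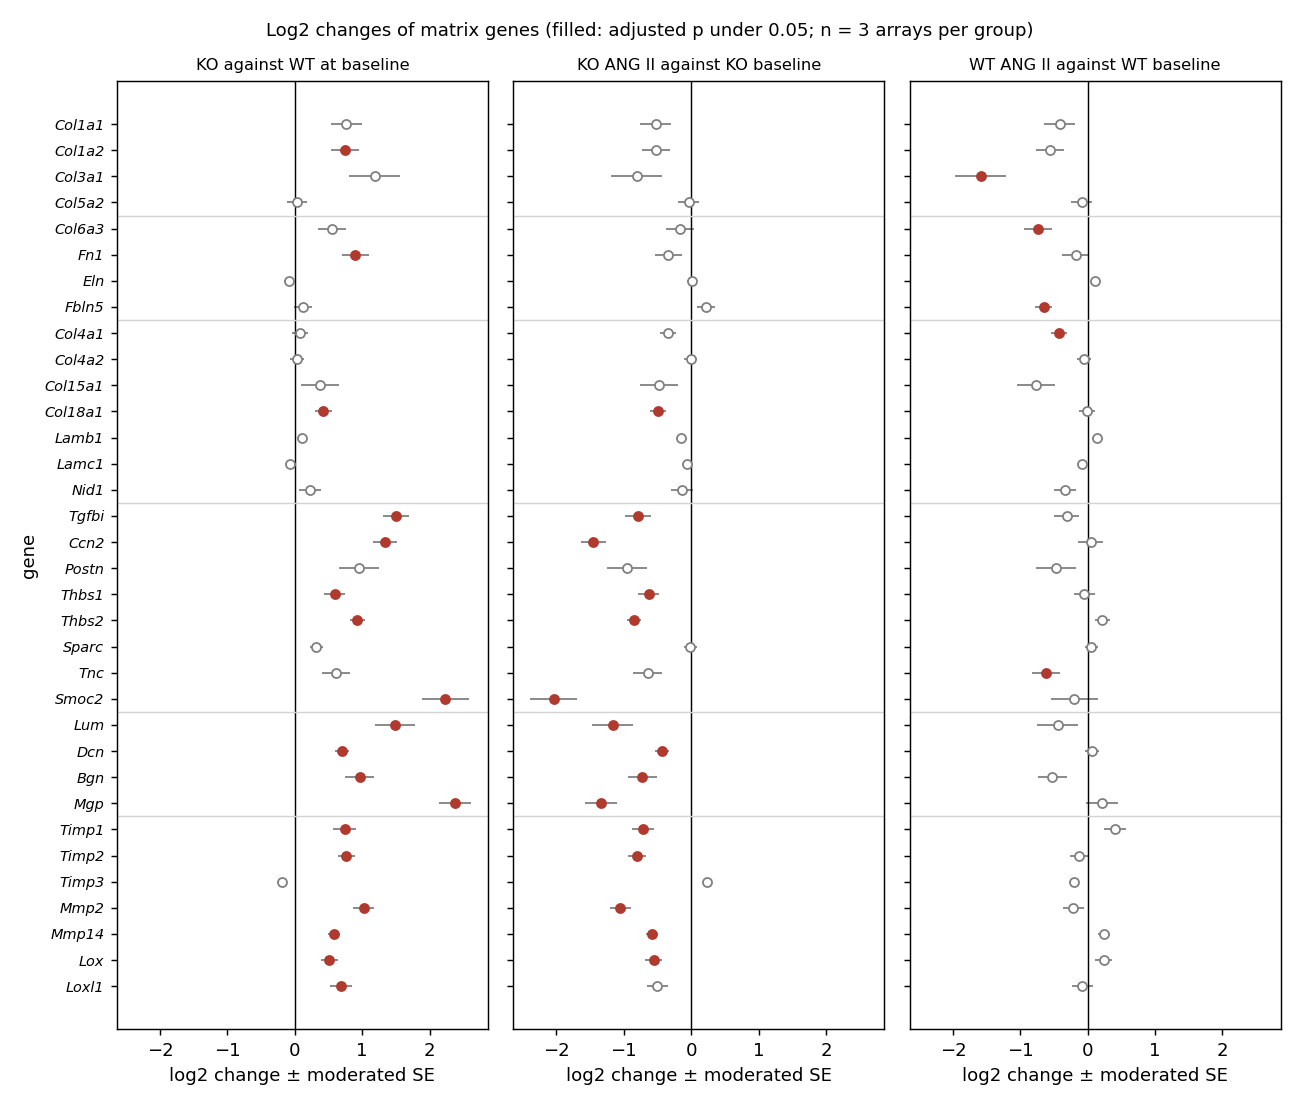
Log2 change of each of the 34 matrix genes, with its moderated standard error, in the baseline comparison of KO with WT (left), the KO response (middle) and the WT response (right), ordered by role; filled points passed an adjusted p under 0.05. The baseline differences lie to the right of 0 for most genes and the KO responses to the left, from -2.04 for Smoc2 to 0.23 for Timp3.

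Col3a1, the chain of type III collagen of loose connective tissue and early scars, had ratios of 0.945, 1.43 and 0.674 in WT baseline, 0.264, 0.462 and 0.275 in WT ANG II, 3.45, 2.19 and 1.41 in KO baseline and 2.08, 0.909 and 1.05 in KO ANG II. The 3 infused WT kidneys were the lowest of the 12, and the KO kidneys at baseline spread widely and touched the highest WT kidney. Col3a1 fell 3.01-fold in WT with ANG II (log2 change -1.59 ± 0.38, adjusted p = 0.00937), and it was 3.90-fold higher in KO than in WT under ANG II (1.96 ± 0.38, adjusted p = 0.00281). The baseline difference of 1.18 ± 0.38 was not called (adjusted p = 0.0729), nor was the KO response of -0.81 ± 0.38. The 2 probe sets of Col3a1 differed in the WT response, -2.42 ± 0.48 against -0.76 ± 0.35, and the call ended where the probe set of plain name stood for the gene (adjusted p = 0.128).

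Col1a2, a chain of type I collagen, the main collagen of scars, had ratios of 0.950, 1.07 and 0.731 in WT baseline, 0.540, 0.724 and 0.596 in WT ANG II, 1.96, 1.58 and 1.13 in KO baseline and 1.31, 1.02 and 0.888 in KO ANG II. KO kidneys lay above WT kidneys of the same treatment in both cases. Col1a2 was 1.68-fold higher in KO at baseline (0.74 ± 0.20, adjusted p = 0.0417) and 1.72-fold higher under ANG II (0.78 ± 0.20, adjusted p = 0.0152). The changes with infusion were -0.56 in WT and -0.52 in KO, each ± 0.20, and neither was called. In WT 2 of the 3 probe sets of Col1a2 were called lower, by -1.14 and -0.70, and the other changed by 0.17. In KO 1 of the 3 was called lower. The gene was called lower in 9 of the 23 alternative fits in WT and in 3 in KO. The baseline call ended in 9 of the 23 alternative fits, with adjusted p of 0.0523 to 0.174. Col1a1, the other chain of type I collagen, had differences of 0.77 ± 0.23 at baseline (adjusted p = 0.0588) and 0.65 ± 0.23 under ANG II (adjusted p = 0.0518). Of its 2 probe sets, 1 was called higher in both comparisons (1.145 and 1.03) and the other in neither (0.385 and 0.28). The gene was called higher in 5 of the 23 alternative fits at baseline and in 8 under ANG II. Col5a2, a chain of the type V collagen that sets fibril width, moved by no more than 0.09 in size in any comparison of 2 groups.

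Among the other fibre genes, Col6a3, a chain of the beaded microfibrils of type VI collagen, had ratios of 0.913, 1.03 and 0.774 in WT baseline, 0.386, 0.631 and 0.642 in WT ANG II, 1.54, 1.43 and 1.04 in KO baseline and 1.45, 1.15 and 0.965 in KO ANG II. The infused WT kidneys were lower than all others, and the KO groups overlapped. Col6a3 fell in WT (-0.74 ± 0.21, adjusted p = 0.0214), changed by -0.17 ± 0.21 in KO, and was 2.18-fold higher in KO under ANG II (1.12 ± 0.21, adjusted p = 0.00243). The difference between the 2 responses, 0.57 ± 0.30, was not called (adjusted p = 0.240).

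Fbln5, a protein needed for elastic fibre assembly, had ratios of 0.940, 1.01 and 0.933 in WT baseline, 0.467, 0.680 and 0.716 in WT ANG II, 1.14, 1.02 and 0.981 in KO baseline and 1.31, 1.18 and 1.17 in KO ANG II. The genotypes overlapped at baseline and lay far apart under ANG II. Fbln5 fell 1.57-fold in WT (-0.66 ± 0.13, adjusted p = 0.00391) and changed by 0.22 ± 0.13 in KO, and the responses differed by 0.88 ± 0.19 (adjusted p = 0.00885). It was 2.00-fold higher in KO under ANG II (1.00 ± 0.13, adjusted p = 2.32e-04). These 3 calls of Fbln5 held in every gene-level alternative that was run. The fall in WT came from 1 of its 2 probe sets, which changed by -1.28 ± 0.18 while the other changed by -0.02 ± 0.16.

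Fn1, fibronectin, on which collagen fibres are laid down, had ratios of 0.850, 0.949 and 0.695 in WT baseline, 0.635, 0.839 and 0.728 in WT ANG II, 2.10, 1.45 and 1.18 in KO baseline and 1.54, 1.04 and 1.11 in KO ANG II. All KO kidneys were above all WT kidneys. Fn1 was 1.86-fold higher in KO at baseline (0.90 ± 0.20, adjusted p = 0.0178) and 1.66-fold higher under ANG II (0.73 ± 0.20, adjusted p = 0.0188), and its responses of -0.18 in WT and -0.34 in KO were not called. Eln, elastin, was called in none of the 5 comparisons, and its differences ranged from -0.20 to 0.12.

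Few basement membrane genes were called. Col18a1, whose product carries heparan sulfate and holds the antiangiogenic endostatin fragment, had ratios of 1.00, 1.09 and 0.835 in WT baseline, 0.939, 0.979 and 0.966 in WT ANG II, 1.45, 1.32 and 1.15 in KO baseline and 1.10, 0.839 and 0.856 in KO ANG II. The KO kidneys at baseline were above all others. Col18a1 was 1.34-fold higher in KO at baseline (0.42 ± 0.12, adjusted p = 0.0489), a call that ended in 15 of the 23 alternative fits, and fell in KO with ANG II (-0.49 ± 0.12, adjusted p = 0.0206).

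Col4a1, a chain of the type IV collagen network, had ratios of 1.05, 1.26 and 0.979 in WT baseline, 0.753, 0.841 and 0.839 in WT ANG II, 1.15, 1.11 and 1.18 in KO baseline and 1.09, 0.797 and 0.855 in KO ANG II. In both genotypes the infused kidneys were below the baseline kidneys. Col4a1 fell in WT (-0.43 ± 0.12, adjusted p = 0.0177), and its change of -0.34 ± 0.12 in KO was not called (adjusted p = 0.0691). The responses differed by 0.09 ± 0.16 (adjusted p = 0.793). The WT call ended in 3 of the 23 alternative fits, one of them without WT baseline replicate 2 and one with quantile normalization.

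The other 5 basement membrane genes were called as genes in none of the 5 comparisons, though some of their probe sets were. For Nid1, 1 of 3 probe sets was called lower in WT and 1 higher in KO under ANG II. For Lamb1, 1 of 4 was called higher in WT, 1 lower in KO under ANG II and 2 lower in the difference of responses. For Lamc1, 1 of 2 was called lower in WT. Col4a2, the partner chain of Col4a1, changed by -0.06 ± 0.10 in WT and -0.01 ± 0.10 in KO. Lamc1, the gamma chain shared by most laminins, differed by -0.07 ± 0.07 at baseline, and Lamb1, a laminin beta chain, by 0.11 ± 0.07. Nid1, which links laminin to type IV collagen, differed by 0.23 ± 0.16. Col15a1, a basement membrane zone collagen of vessels and muscle, had the largest changes of the 5, -0.77 ± 0.28 in WT (adjusted p = 0.0608) and 0.67 ± 0.28 between the infused genotypes (adjusted p = 0.0988).

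Among the matricellular genes, Smoc2, a calcium-binding protein related to SPARC, had ratios of 1.03, 1.14 and 0.576 in WT baseline, 0.710, 0.909 and 0.694 in WT ANG II, 6.05, 5.11 and 2.28 in KO baseline and 1.45, 0.924 and 0.756 in KO ANG II. Every KO kidney at baseline was above the other 9 kidneys, and the infused KO kidneys overlapped both WT groups. Smoc2 was 4.70-fold higher in KO at baseline (2.23 ± 0.35, adjusted p = 0.00259) and fell 4.11-fold in KO with ANG II (-2.04 ± 0.35, adjusted p = 0.00383), against a change of -0.20 ± 0.35 in WT. The responses differed by -1.84 ± 0.49 (adjusted p = 0.0273), a call that ended in 8 of 22 alternative fits.

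Tgfbi, an adhesion protein induced by TGF-beta, had ratios of 0.830, 0.871 and 0.743 in WT baseline, 0.555, 0.858 and 0.587 in WT ANG II, 2.91, 2.33 and 1.80 in KO baseline and 1.57, 1.11 and 1.35 in KO ANG II. Every KO kidney was above every WT kidney. Tgfbi was 2.83-fold higher in KO at baseline (1.501 ± 0.19, adjusted p = 8.65e-04) and 2.04-fold higher under ANG II (1.03 ± 0.19, adjusted p = 0.00220), and it fell in KO (-0.79 ± 0.19, adjusted p = 0.0192). Its change in WT was -0.31 ± 0.19, and the responses differed by -0.47 ± 0.27, which was not called.

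Ccn2, connective tissue growth factor, another TGF-beta target, had ratios of 0.995, 1.00 and 0.948 in WT baseline, 0.796, 1.42 and 0.922 in WT ANG II, 2.86, 2.45 and 2.18 in KO baseline and 0.821, 1.12 and 0.815 in KO ANG II. The KO kidneys at baseline stood above the other 9, whose ratios ran into each other. Ccn2 was 2.53-fold higher in KO at baseline (1.34 ± 0.18, adjusted p = 0.00140) and fell 2.73-fold in KO (-1.45 ± 0.18, adjusted p = 8.60e-04). It changed by 0.05 ± 0.18 in WT, and the responses differed by -1.497 ± 0.26 (adjusted p = 0.00282).

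Of the other matricellular genes, Thbs1 and Thbs2, thrombospondins that bind matrix and inhibit vessel growth, were higher in KO at baseline by 0.59 ± 0.16 and 0.93 ± 0.11, and fell in KO by 0.63 and 0.85 on the log2 scale. The difference in response was called for Thbs2 (-1.07 ± 0.15, adjusted p = 8.55e-04) and not for Thbs1 (-0.58 ± 0.22, adjusted p = 0.109). Tnc, tenascin C of healing wounds, fell in WT (-0.62 ± 0.21, adjusted p = 0.0466), a call that ended in 11 of the 23 alternative fits, and changed by -0.65 ± 0.21 in KO (adjusted p = 0.0619). Postn, periostin, differed by 0.96 ± 0.30 at baseline (adjusted p = 0.0660) and changed by -0.96 ± 0.30 in KO (adjusted p = 0.0509). Sparc, osteonectin, which binds collagen, was not called as a gene, and in WT 2 of its probe sets were called in opposite directions (-0.40 and 0.36).

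The proteoglycan group and Mgp were all higher in KO at baseline. Mgp, matrix Gla protein, an inhibitor of calcification, had ratios of 0.647, 0.690 and 0.496 in WT baseline, 0.525, 0.887 and 0.737 in WT ANG II, 4.36, 3.28 and 2.16 in KO baseline and 1.45, 1.11 and 1.18 in KO ANG II. All KO kidneys were above all WT kidneys, and the infused KO kidneys lay between the WT kidneys and the KO kidneys at baseline. Mgp was 5.19-fold higher in KO at baseline (2.38 ± 0.24, adjusted p = 2.36e-04) and 1.77-fold higher under ANG II (0.82 ± 0.24, adjusted p = 0.0238). It fell 2.53-fold in KO (-1.34 ± 0.24, adjusted p = 0.00449) and changed by 0.21 ± 0.24 in WT, a difference in response of -1.55 ± 0.34 (adjusted p = 0.00965).

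Lum, lumican, a proteoglycan that spaces collagen fibrils, had ratios of 0.950, 1.05 and 0.684 in WT baseline, 0.592, 0.824 and 0.552 in WT ANG II, 3.58, 2.91 and 1.46 in KO baseline and 1.29, 0.795 and 1.30 in KO ANG II. The KO kidneys at baseline were the 3 highest, replicate 3 by a small margin. Lum was 2.81-fold higher in KO at baseline (1.49 ± 0.30, adjusted p = 0.0102) and fell in KO (-1.17 ± 0.30, adjusted p = 0.0253). The difference of 0.77 ± 0.30 under ANG II was not called (adjusted p = 0.0751).

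Bgn, biglycan, which binds collagen and TGF-beta, had ratios of 0.973, 1.04 and 0.765 in WT baseline, 0.455, 0.788 and 0.725 in WT ANG II, 2.16, 1.91 and 1.40 in KO baseline and 1.35, 1.05 and 0.899 in KO ANG II. KO kidneys were above WT kidneys of the same treatment in each case. Bgn was higher in KO at baseline (0.96 ± 0.22, adjusted p = 0.0186) and under ANG II (0.76 ± 0.22, adjusted p = 0.0231). It fell in KO (-0.73 ± 0.22, adjusted p = 0.0458), a call that ended in 8 of the 23 alternative fits.

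Dcn, decorin, the proteoglycan most like biglycan, was higher in KO at baseline as a mean of its 2 probe sets (0.70 ± 0.11, adjusted p = 0.00215) and fell in KO (-0.44 ± 0.11, adjusted p = 0.0201). The 2 probe sets did not move together. At baseline one differed by 1.49 ± 0.24 and the other by -0.08 ± 0.12, and under ANG II they were called in opposite directions, 0.76 ± 0.24 and -0.36 ± 0.12. The direction for Dcn therefore rests on which probe set is read. The difference in response of -0.50 ± 0.15 (adjusted p = 0.0443) was called for the mean of the 2 and for neither probe set alone.

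**Figure D3:**
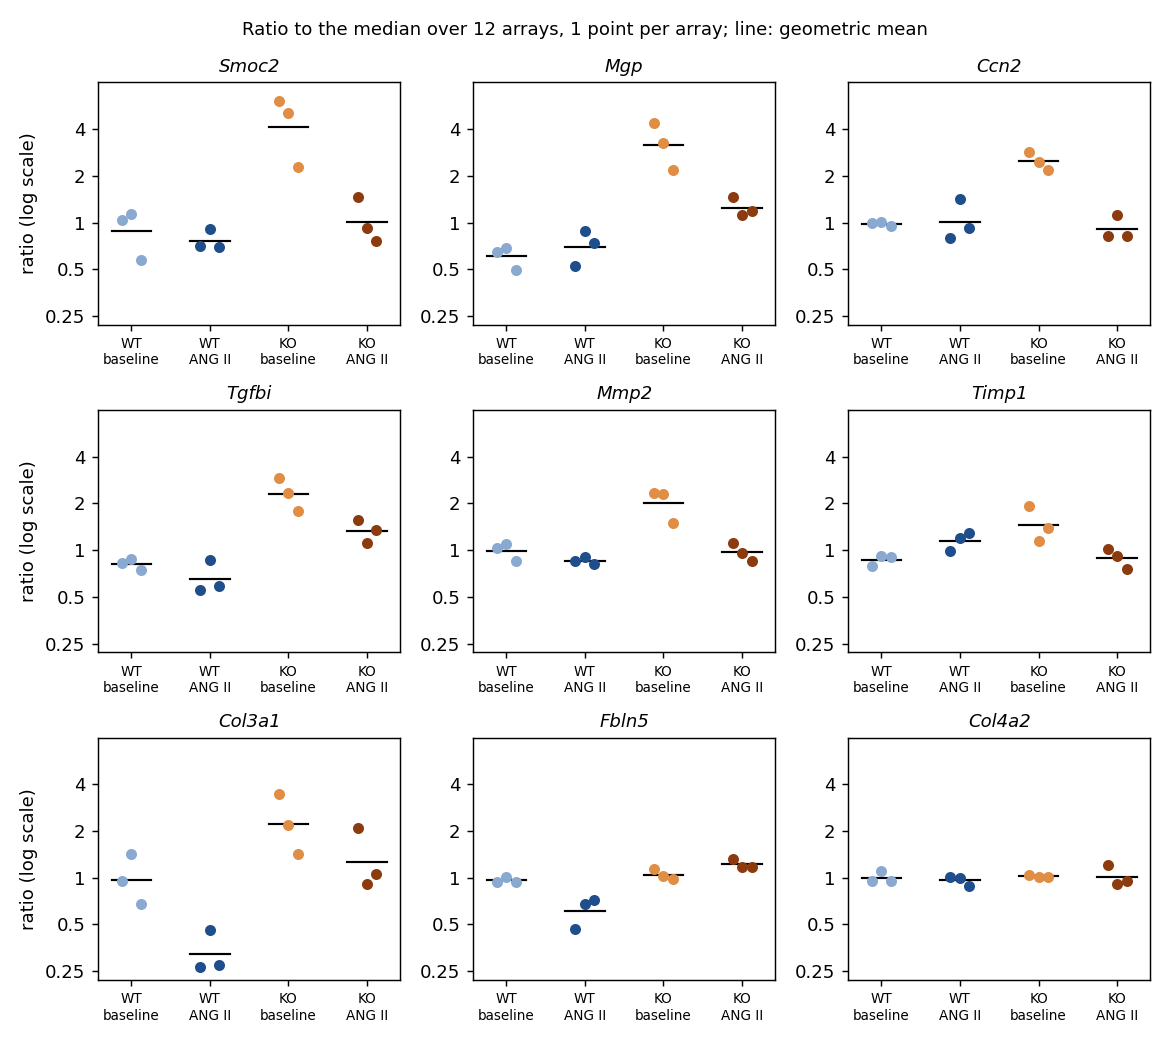
Ratio to the median of the 12 kidneys, on a log axis, for 9 of the matrix genes, with 1 point per mouse and a line at the geometric mean of each group of 3. The KO baseline points are the highest for Smoc2, Mgp, Ccn2, Tgfbi and Mmp2, the WT ANG II points are the lowest for Col3a1 and Fbln5, and the 4 groups overlap for Col4a2.

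Mmp2, gelatinase A, which cuts type IV collagen and denatured collagens, had ratios of 1.04, 1.10 and 0.847 in WT baseline, 0.852, 0.903 and 0.809 in WT ANG II, 2.33, 2.30 and 1.503 in KO baseline and 1.10, 0.954 and 0.854 in KO ANG II. The KO kidneys at baseline were above the other 9, which lay close together. Mmp2 was 2.03-fold higher in KO at baseline (1.02 ± 0.16, adjusted p = 0.00247) and fell 2.08-fold in KO (-1.05 ± 0.16, adjusted p = 0.00199), and the responses differed by -0.84 ± 0.22 (adjusted p = 0.0257).

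Timp2, an inhibitor that also takes part in activating MMP2, had ratios of 0.981, 1.06 and 0.876 in WT baseline, 0.821, 0.944 and 0.896 in WT ANG II, 1.85, 1.77 and 1.37 in KO baseline and 1.03, 1.04 and 0.778 in KO ANG II. It followed the order seen for Mmp2, with the KO kidneys at baseline on top. Timp2 was 1.70-fold higher in KO at baseline (0.77 ± 0.13, adjusted p = 0.00478) and fell in KO (-0.80 ± 0.13, adjusted p = 0.00317). Mmp14, the membrane-bound enzyme that activates MMP2, was higher in KO at baseline by 0.58 ± 0.09 (adjusted p = 0.00201) and fell in KO by the same 0.58 on the log2 scale. Its change in WT was 0.25 ± 0.09 (adjusted p = 0.0510), and the responses differed by -0.83 ± 0.12 (adjusted p = 9.83e-04).

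Timp1, the inhibitor most often induced in injured tissue, had ratios of 0.792, 0.917 and 0.906 in WT baseline, 0.990, 1.203 and 1.29 in WT ANG II, 1.92, 1.14 and 1.40 in KO baseline and 1.01, 0.913 and 0.754 in KO ANG II. In WT the infused kidneys were above the baseline kidneys and in KO they were below. Timp1 changed by 0.41 ± 0.17 in WT (adjusted p = 0.0880) and fell in KO (-0.71 ± 0.17, adjusted p = 0.0172), and the responses differed by -1.12 ± 0.24 (adjusted p = 0.00861). Timp3, an inhibitor held in the matrix, went the other way, by -0.20 ± 0.07 in WT and 0.23 ± 0.07 in KO, neither called alone, with a called difference in response of 0.42 ± 0.10 (adjusted p = 0.0192). It was higher in KO under ANG II (0.23 ± 0.07, adjusted p = 0.0389), a call that ended in 10 of the 23 alternative fits.

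Lox and Loxl1 crosslink collagen and elastin. Lox was higher in KO at baseline (0.52 ± 0.12, adjusted p = 0.0244) and fell in KO (-0.56 ± 0.12, adjusted p = 0.0138). Its difference in response was -0.79 ± 0.17 (adjusted p = 0.0108). At baseline the 3 probe sets of Lox gave -0.08 to 0.87, and the call ended in 4 of the 23 alternative fits. Loxl1 was higher in KO at baseline (0.69 ± 0.16, adjusted p = 0.0201). Its 2 probe sets gave 0.27 and 1.10 there, and the call ended in 5 of the 23 alternative fits. The change of Loxl1 in KO, -0.51 ± 0.16, was not called (adjusted p = 0.0534).

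Further genes of the same pathways, from 7 lists that hold no member, were read in the same fit. Of all genes 5.13% were higher in KO at baseline and 2.94% lower. At baseline, 7 of 21 other fibril-associated genes were higher in KO, among them Col6a1 (0.98 ± 0.19), Mfap5 of microfibrils (0.96 ± 0.16) and Prelp (0.88 ± 0.14), and 0 were lower. Of 18 other basement membrane genes 2 were higher, Lama2 (0.54 ± 0.14) and Lamb2 (0.39 ± 0.09), and of 18 other proteases and inhibitors 2, Mmp12 of macrophages (1.27 ± 0.22) and Plaur (0.31 ± 0.08). Of 10 other matricellular genes 3 were higher, Ccn1 (1.31 ± 0.26), Sparcl1 (1.01 ± 0.14) and Tnxb (0.57 ± 0.09), and 1 was lower, Ccn5 (-0.35 ± 0.10). In the TGF-beta pathway 6 of 20 genes were higher, led by Ltbp2 (1.09 ± 0.16), Tgif1 (0.42 ± 0.10) and the ligand Tgfb2 (0.41 ± 0.10). Among 18 matrix receptors 5 were higher, led by the hyaluronan receptor Cd44 (1.40 ± 0.10) and the collagen receptor Ddr2 (0.74 ± 0.17). Of 14 collagen processing genes only Ctsk, a collagen-cutting cathepsin, was higher (0.66 ± 0.12).

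In KO with ANG II, 5 of the 21 fibril-associated genes fell, led by Mfap5 (-0.999 ± 0.16) and Efemp1 (-0.96 ± 0.15), with 5 of the 20 TGF-beta genes, led by Ltbp2 (-0.97 ± 0.16), and 6 of the 18 receptors, led by Cd44 (-1.07 ± 0.10), and none of these 3 lists had a gene that rose. The other proteases had 4 that fell, led by Mmp12 (-1.32 ± 0.22), the matricellular list 2 that fell (Ccn1, -1.11 ± 0.26, and Sparcl1, -0.91 ± 0.14) and 1 that rose (Ccn5, 0.34 ± 0.10), and the basement membrane list 3 that fell and 1 that rose (Lama1, 0.36 ± 0.11). Ctsk fell (-0.68 ± 0.12). Of all genes 7.00% fell and 5.82% rose in this comparison.

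In WT with ANG II most lists moved in both directions. Of all genes 15.6% fell and 10.9% rose, and several of the counts below lay near these shares. Of the fibril-associated genes 4 fell, led by Ogn (-1.15 ± 0.20) and Col14a1 (-0.87 ± 0.16), and 2 rose. Of the basement membrane list 4 fell, led by the glomerular chain Col4a5 (-0.79 ± 0.09), and 1 rose, Lama5 (0.27 ± 0.07). In collagen processing 2 fell, the collagen chaperone Serpinh1 (-0.74 ± 0.11) and the prolyl hydroxylase subunit P4ha1 (-0.62 ± 0.12), and 0 rose. The other proteases had 6 that fell, led by Mmp13 (-1.09 ± 0.18), and 3 that rose, among them Mmp7 (0.41 ± 0.09). The TGF-beta list had 2 that fell and 3 that rose, the receptors 2 that fell, led by Itgb6 (-1.12 ± 0.19), and 2 that rose, and the matricellular list 1 that fell and 2 that rose.

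Under ANG II, 4 of the 14 collagen processing genes were higher in KO than in WT, Serpinh1 (1.04 ± 0.11, adjusted p = 3.65e-05), P4ha1 (0.90 ± 0.12), P4ha2 (0.52 ± 0.14) and P4hb (0.18 ± 0.06), and 0 were lower. The fibril-associated list had 3 higher, led by Ogn (1.45 ± 0.20) and Col14a1 (1.26 ± 0.16), and 2 lower. The basement membrane list had 4 higher and 2 lower, the other proteases 6 and 3, and the matricellular list 2 and 1. The TGF-beta list had 2 and 0, and the receptors 1 and 2. Of all genes 15.2% were higher in KO and 10.4% lower, and several of these counts lay near those shares. The response differed between the genotypes for Serpinh1 (0.70 ± 0.15, adjusted p = 0.00989), Cd44 (-1.16 ± 0.14, adjusted p = 3.45e-04), Ltbp2 (-1.23 ± 0.23, adjusted p = 0.00444) and Sparcl1 (-1.17 ± 0.19, adjusted p = 0.001995), among others.

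Markers of several other cell types were higher in KO at baseline, as many matrix genes were, and those of others were not. Of all genes 5.13% were higher and 2.94% lower in this comparison. At baseline 9 of 11 macrophage genes were higher in KO, led by Lyz2 (2.42), Ctss (1.71) and C1qb (1.49), and the mean log2 ratio of the list per kidney was 0.784 to 1.357 in KO baseline, -0.376 to 0.004 in WT baseline, -0.121 to 0.342 in KO ANG II and -0.670 to -0.358 in WT ANG II. Of 11 fibroblast and interstitial genes 4 were higher, Dpt (1.895), Thy1 (0.78), Pdgfrb (0.69) and Fbln1 (0.68), with list means of 0.309 to 0.589 in KO baseline, -0.170 to 0.056 in WT baseline, -0.097 to 0.168 in KO ANG II and -0.290 to -0.047 in WT ANG II. The pericyte list had 3 of 7 genes higher, the podocyte list 3 of 6, the endothelial list 2 of 10, the smooth muscle list 1 of 8 (Tagln, 1.29), the injured proximal tubule list 2 of 6 (Lcn2, 2.39, and Vcam1, 1.49), and the kidney list 0 of 8. Of the neutrophil, adrenal cortex and fat lists 0 genes were higher in KO at baseline, and 1 adrenal and 1 fat gene were lower. All 6 neutrophil and all 7 adrenal genes had negative differences. Pdgfrb stands in both the fibroblast and the pericyte list, and Fbln1 in both the fibroblast and the fibril-associated list.

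In KO with ANG II, 8 of the 11 macrophage genes fell, and so did 5 of 11 fibroblast genes (among them Dpt, -1.60, and Pdgfra, -0.99), 5 of 10 endothelial genes, 3 of 6 podocyte genes, 2 of 7 pericyte genes and 2 of 6 injured tubule genes, while 1 endothelial gene, Kdr, rose (0.35) and 2 of 6 neutrophil genes rose. In WT with ANG II, 5 macrophage genes, 4 endothelial genes and 1 fibroblast gene (Cd34, -0.39) fell, and 4 of 6 injured tubule genes and 2 of 6 neutrophil genes rose. In the same comparison 3 of 8 genes of urothelium and pelvis rose (Upk2, 0.48, Krt20, 0.40, and Upk1a, 0.35), where Krt20 also stands in the injured tubule list, and 2 of 7 adrenal cortex genes rose (Mc2r, 0.38, and Hsd3b1, 0.28). The urothelial list means were -0.012 to 0.252 in WT ANG II and -0.185 to 0.047 in WT baseline, and the adrenal list means 0.084 to 0.310 and -0.037 to 0.055. In KO with ANG II, 2 of the 7 adrenal genes rose and 0 of the 8 urothelial genes were called, and under ANG II 1 adrenal and 2 urothelial genes were lower in KO. Between the infused genotypes 8 macrophage genes, 4 endothelial genes and 1 fibroblast gene were higher in KO. Of 8 fat genes 2 rose and 1 fell in WT, and of 3 blood genes 1 rose. Of 8 kidney genes 1 fell in WT, and between the infused genotypes 1 was higher in KO and 1 lower. Of all genes 7.00% fell and 5.82% rose in the KO response, and 15.6% fell and 10.9% rose in the WT response. Between the infused genotypes 15.2% of all genes were higher in KO and 10.4% lower. The part of these cell types and of adjacent tissue in the matrix gene results was not tested.

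**Figure D4:**
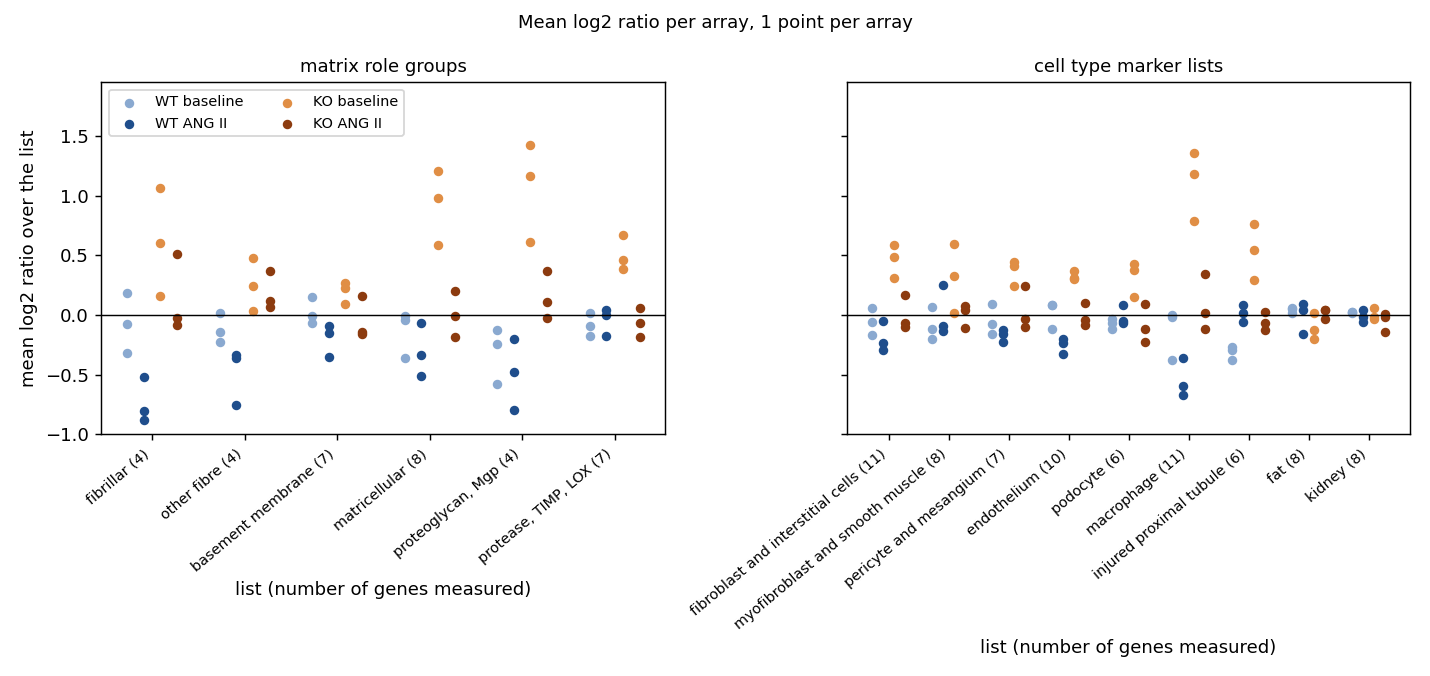
Mean log2 ratio over the genes of each matrix role group (left) and of each cell type marker list (right), with 1 point per array and the number of measured genes in brackets. On the left, the KO baseline points are the highest of their column for the matricellular genes, the proteoglycans with Mgp and the protease group. On the right, they are the highest for the macrophage, fibroblast, endothelial, podocyte and injured proximal tubule lists. They are also the highest for the pericyte list, by a small margin (0.241 against 0.240 in KO ANG II). The kidney list stays within -0.145 to 0.062.

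The 3 kidneys of a group also differed in a way shared by many members. KO baseline replicate 1 was the highest of its group for 28 of the 34 genes and replicate 3 the lowest for 26. KO ANG II replicate 1 was the highest of its group for 28, WT ANG II replicate 1 the lowest for 26 and WT baseline replicate 3 the lowest for 27. With the group means removed, the median correlation over all 561 pairs of members across the 12 arrays was 0.51, and it was 0.89 for the 6 pairs of proteoglycans and Mgp, 0.64 for the 6 fibrillar collagen pairs, 0.55 for the 28 matricellular pairs, 0.49 for the 6 pairs of other fibre genes, 0.36 for the 21 basement membrane pairs and 0.24 for the 21 pairs of proteases, inhibitors and crosslinking enzymes. The points share arrays, and these values are descriptions with no test. The counts and correlations were not taken over all genes, so whether they are particular to matrix genes was not tested. Of the neighbouring pairs with no protein-coding gene between them, Col4a1 and Col4a2 on chromosome 8 had 0.80, Smoc2 and Thbs2 on chromosome 17 had 0.80, Dcn and Lum on chromosome 10 had 0.73, and Col3a1 and Col5a2 on chromosome 1 had 0.35.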

How the data were processed

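Total RNA of snap-frozen kidneys, 3 mice in each of 4 groups, was hybridised to 1 array per mouse. RMA is named in the submitters' processing notes. The deposited values are linear ratios to the median of the probe set in the 12 kidneys. No source used here states this division, and it was read from the values: for 45099 of 45101 probe sets the median was 1 within 0.002, and neither of the other 2 belongs to a matrix gene. Ratios keep no intensity, so no filter on dim probes was possible. Precision is limited by how few arrays there are and by probe sets of a gene that disagree.

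Ratios were put on the log2 scale, 64 control probe sets were left out, and probe sets with 1 gene symbol in the array annotation were averaged to 18193 genes. The 12 arrays entered 1 limma model (version 3.58.1, R 4.3.3) with 4 group means (8 residual and 4.73 prior degrees of freedom). The 5 comparisons were tested two-sided with Benjamini-Hochberg adjustment within each. The same model was fitted to 45037 probe sets to see where those of a gene disagreed. The 3 mice of a group are separate animals, so p-values measure the spread between them.

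The matrix genes, the pathway lists and the marker lists were chosen with earlier results of these data known. Called members are named. Values of every array are given for up to 3 called genes of each role with the largest changes between 2 groups. In the other lists up to 3 called genes with the largest changes are named in most cases, and more where they were few. Alternatives were the median of the probe sets, 1 probe set of the plainest name, the mean without probe sets ending in _s_at or _x_at, any probe set called, the 2 groups alone, quantile normalization, a common array median, a block for the replicate number, array weights, a variance trend, robust moderation, a filter on low spread, and each array left out in turn.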

Additional observations from a re-analysis of the deposited data

Results flagged for a closer look

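The response to ANG II differed between KO and WT kidneys for 12 of the 34 measured matrix genes by the interaction term of limma's fit, with Benjamini-Hochberg adjustment over all genes, and each of these is listed as the KO response minus the WT response on the log2 scale. The difference was -1.84 for Smoc2, -1.55 for Mgp, -1.50 for Ccn2, -1.12 for Timp1, -1.07 for Thbs2, -0.84 for Mmp2, -0.83 for Mmp14, -0.79 for Lox, -0.67 for Timp2 and -0.50 for Dcn. It was 0.88 for Fbln5 and 0.42 for Timp3. For the first 10 genes the KO kidneys at baseline were higher than the WT kidneys at baseline, and these same arrays enter the KO response. Of the 12 calls, those of Fbln5, Ccn2, Thbs2, Mgp, Timp1, Mmp14 and Lox held in every gene-level alternative that was run. The calls of Timp2 and Dcn each ended in 9 of 22 alternative fits, that of Smoc2 in 8 and that of Mmp2 in 6. Neither of the 2 probe sets of Dcn was called alone (-0.73 and -0.27). Single kidneys were not tested as outliers within the groups of 3.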

How the results depend on the processing

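Over 3861 values of single genes under the alternatives, 3594 kept their direction and side of the threshold, 164 lost the call, 101 gained one and 2 turned. Both turned values were those of Dcn with 1 probe set of the plainest name, -0.082 at baseline and -0.36 (adjusted p = 0.0413) under ANG II, since its other probe set was left out. In the WT response the count of 5 became 8 (2 higher, 6 lower) with the 2 groups alone, 3 with quantile normalization and 10 (1 higher, 9 lower) with any probe set called, and between the infused genotypes the count of 9 became 14 (13 higher, 1 lower) with any probe set called. The cause was not tested. All other counts stayed within 1.5 times in the settings that kept every array. With each array left out in turn, the count ranged from 2 to 7 in the WT response, 8 to 18 in the KO response, 7 to 14 for the difference of responses, 9 to 20 at baseline and 4 to 13 under ANG II. The main fit did not pair the mice by replicate number, and whether these numbers mark a pairing was not settled. With group means removed, 7 of 18 same-numbered pairs of arrays correlated above 0.1 (-0.15 to 0.29). This held for 10 of 36 other pairs (-0.37 to 0.25), and 7 of 12 arrays correlated best with one of their own number. With the number as a replicate block the counts were 7, 17, 12, 22 and 13 in the same order. Another normalization or centring moved the median of all genes by no more than 0.1 (log2).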
